A study of Homo sapiens with 6 samples.

Results

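MicroRNAs (miRNAs) are short RNAs that guide Argonaute proteins to mRNAs, and this report covers the mRNAs of 10 genes that make or carry them: DROSHA, DGCR8, XPO5, DICER1, TARBP2, AGO1, AGO2, AGO3, TNRC6A and TNRC6B. The genes were listed by name, as the Microprocessor, export, Dicer, Argonaute and GW182 genes, because DDX17 is a cofactor of the Microprocessor. They are 10 of the 29476 genes in the count table, and all 10 passed the filter on low counts that left 15615 genes for testing. RNA-seq of polyadenylated RNA was performed on A549 cells, an established human lung adenocarcinoma line. The control group (siCtrl) was 3 libraries from cells given a nontargeting siRNA, and the DDX17 knockdown group (siDDX17) was 3 libraries from cells given an siRNA against DDX17. The knockdown was transient and rested on 1 siRNA, all cells received an siRNA, and the labels call the siCtrl cells a plasmid control although their titles name an siRNA. The time from transfection to harvest for these libraries is not given in the sources used here.

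A miRNA is transcribed as a long primary transcript with a hairpin, which the RNase DROSHA and its RNA-binding partner DGCR8 cut out in the nucleus as the Microprocessor complex. Exportin-5, made from XPO5, carries the hairpin to the cytoplasm, where DICER1 and its partner TARBP2 trim it to a duplex and pass it to an Argonaute. The loaded Argonaute binds target mRNAs, usually in the 3′ UTR, through bases 2 to 8 of the miRNA, the seed, and GW182 proteins such as TNRC6A and TNRC6B then recruit the deadenylases that shorten the target's poly(A) tail. DDX17 and its paralog DDX5 are DEAD-box helicases that help the Microprocessor with part of the primary transcripts. Mature miRNAs and proteins were not analysed here.

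DGCR8 is both a part of this machinery and one of its substrates: its own mRNA carries miRNA hairpins in exon 2 that DROSHA is known to cleave. The mature miRNAs are shown because this exon is where DROSHA acts on the mRNA of its own partner. All 3 lie on the plus strand of GRCh38.p14, with sequences from RefSeq and the seed in capitals. The miR-3618 sequence is in the 5′ UTR at chr22:20085797-20085818, and both miR-1306 arms are in coding sequence, at chr22:20086072-20086093 and chr22:20086112-20086129.
hsa-miR-3618: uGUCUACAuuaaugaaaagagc
hsa-miR-1306-5p: cCACCUCCccugcaaacgucca
hsa-miR-1306-3p: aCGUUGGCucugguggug
No 2 of these 3 share a seed.

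The siRNAs themselves can enter Argonaute and bind mRNAs through their own seeds, so the 3′ UTRs of the canonical transcripts were searched for the 7 bases complementary to bases 2 to 8 of each siRNA strand. For the DDX17 siRNA, the antisense seed pairs with TATTGCT, which 5 of the 10 genes held in the 3′ UTR, compared with 14.5% of 12987 genes with a 3′ UTR of at least 30 bases. These 5 genes have long 3′ UTRs, of 2411 bases in TNRC6A and 10925 to 16755 bases in the other 4, against a median of 1312 bases over the tested genes. Examples are shown with the 7 matched bases in capitals, on the strand of the gene in GRCh38: AGO1 at chr1:35921206-35921228, AGO3 at chr1:36056529-36056551 and at chr1:36066894-36066916, TNRC6A at chr16:24824839-24824861, and TNRC6B at chr22:40328237-40328259.
AGO1: ctgctcccTATTGCTtctgttta
AGO3, near: actcttgaTATTGCTgtcttaag
AGO3, far: agagcagcTATTGCTatttgaac
TNRC6A: atactacaTATTGCTctgttaaa
TNRC6B: tatccattTATTGCTagttagtt
A second 7mer, GTGCTGA, matches neither siRNA and was picked in earlier work on these same libraries, where genes that carry it tended to be lower, so its presence is not independent of the fold changes. It was present in 5 of the 10 genes (DGCR8, XPO5, AGO2, AGO3 and TNRC6B) and in 12.9% of genes. Sites are shown for a gene of the nucleus and of export, at chr22:20111783-20111805 and, on the minus strand, at chr6:43523331-43523353.
DGCR8: gggagcctGTGCTGAtgccatcc
XPO5: ggtgctaaGTGCTGAagagaact

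The libraries held between 30658136 and 39182371 counts, and the biological coefficient of variation, the spread between replicates beyond counting error, was 0.0754. DDX17 fell from 177, 184 and 206 CPM in siCtrl to 32.1, 30.8 and 30.4 CPM in siDDX17, which is 83.5% lower (log2 fold change −2.6, SE 0.0685, adjusted p = 5.89e-11), so the targeted gene went with the labels. CPM here is the count of a gene relative to the TMM-scaled library size. DDX5 had 380, 410 and 418 CPM in siCtrl and 380, 355 and 384 CPM in siDDX17 (log2 fold change −0.11, SE 0.0594, adjusted p = 0.142). Of 6 markers of A549, 5 were high in every library. EPCAM, an epithelial surface protein, was low but rose from between 0.738 and 1.08 CPM in siCtrl to between 2.21 and 2.28 CPM in siDDX17 (log2 fold change 1.35, adjusted p = 7.68e-05), whereas KRT8, KRT18, AKR1B10 and AKR1C1 were called lower. The summed level of the 6 was 12931 to 14463 CPM in siCtrl and 11176 to 11910 CPM in siDDX17. Of 8 markers of blood, vessel, fibroblast and alveolar cells, 6 of the 7 in the table were under 1 CPM in every library. Their sum was 1.29 to 1.89 CPM in siCtrl and 1.79 to 2.54 CPM in siDDX17, and the part of these shifts in the results was not tested. The median log2 fold change of all tested genes was 0.01 with TMM and 0.128 with library size alone, so a gene whose value is near 0 depends on this choice.

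Of the 10 miRNA machinery genes, 1 was upregulated (DROSHA) and 5 were downregulated (DGCR8, XPO5, TARBP2, AGO2 and AGO3) at an adjusted p under 0.05. The other 4 (DICER1, AGO1, TNRC6A and TNRC6B) did not pass the test. By the same rule 48.8% of all tested genes were called, 24.5% as higher and 24.3% as lower. Set against these shares, 6 of 10 called is near the background, and the 10 genes held fewer higher and more lower calls than it, a comparison that rests on few genes. With library size alone the split was 2 higher and 5 lower. The stricter limits of the study's methods, p under 0.01 and a fold change of 1.5, left DROSHA as higher (11% of all genes) and DGCR8, AGO2 and AGO3 as lower (8.03% of all genes). A log2 fold change under −1 was reached by AGO2 alone of the 10, and by 2.92% of all genes. The median log2 fold change of the 10 was −0.23 against 0.01 over all tested genes, and the median absolute value was 0.41 against 0.29. A level here is a share of all RNA counted, so fewer transcripts per cell and fewer cells holding them cannot be told apart.

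**Figure D1:**
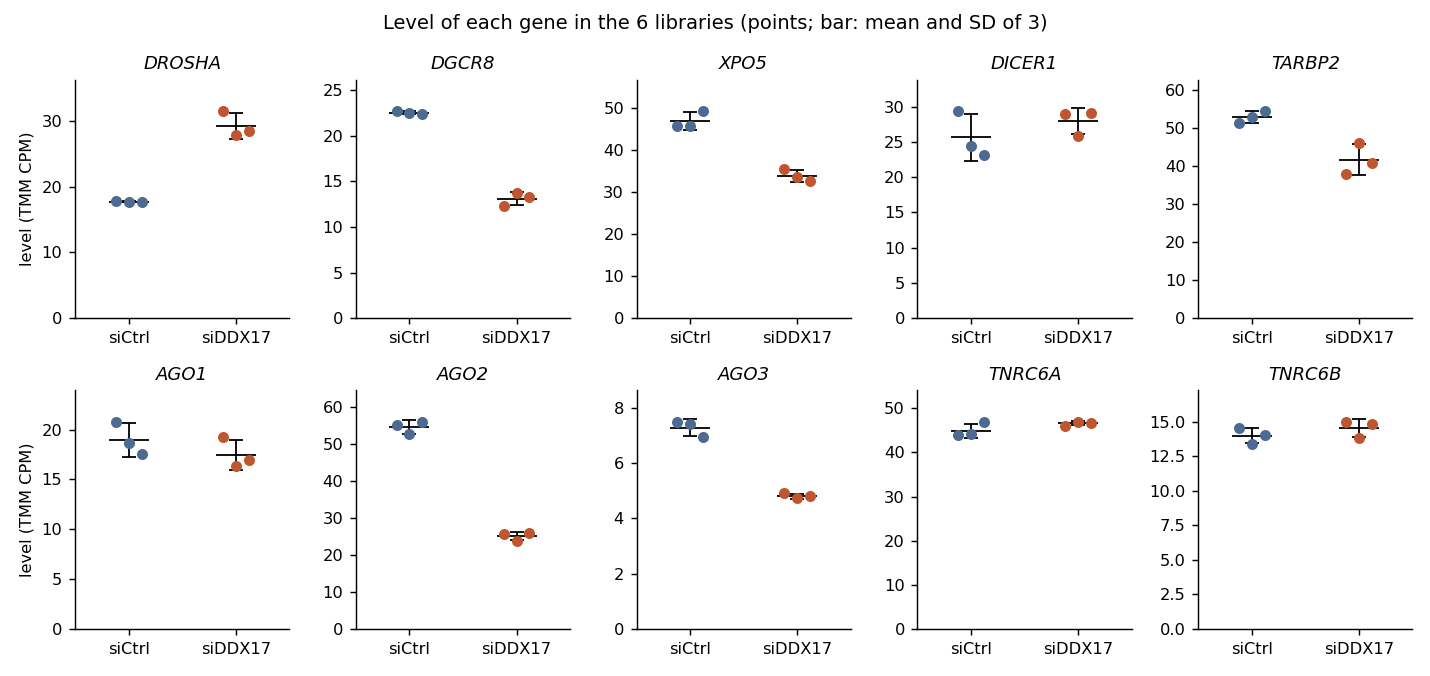
Level of each of the 10 genes in TMM-scaled CPM (y axes, from 0) in the 3 siCtrl (blue) and 3 siDDX17 (orange) libraries; points are libraries, and bars give the mean and SD. DROSHA is higher and DGCR8, XPO5, TARBP2, AGO2 and AGO3 are lower in every siDDX17 library, whereas the groups overlap for DICER1, AGO1, TNRC6A and TNRC6B.

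DROSHA and DGCR8, the nuclease and the RNA-binding subunit of the Microprocessor, moved in opposite directions. DROSHA (ENSG00000113360.16, chromosome 5 from 31400494 to 31532196, minus strand, 36 exons in the canonical transcript) had 17.8, 17.7 and 17.6 CPM in siCtrl and 31.5, 27.8 and 28.4 CPM in siDDX17. Every siDDX17 library was far above the siCtrl libraries, which were nearly equal. The means were 17.7 ± 0.0839 and 29.2 ± 1.96 CPM (SD, n = 3 each), a 1.65-fold rise with a log2 fold change of 0.72 (SE 0.0727, edgeR adjusted p = 3.27e-06, 95% interval 0.57 to 0.88). Of all tested genes, 90.2% had a lower fold change. The raw reads behind it were 603, 507 and 661 counts in siCtrl and 1213, 1014 and 1095 counts in siDDX17.

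DGCR8 (ENSG00000128191.13, chromosome 22 from 20080221 to 20111877, plus strand, 14 exons) had 22.7, 22.5 and 22.3 CPM in siCtrl and 12.3, 13.7 and 13.3 CPM in siDDX17. No siDDX17 library came near the lowest siCtrl library. The level was 41.9% lower, from 22.5 ± 0.212 to 13.1 ± 0.715 CPM (SD, n = 3 each), with a log2 fold change of −0.78 (SE 0.0743, edgeR adjusted p = 1.9e-06, 95% interval −0.94 to −0.62). Only 5.25% of tested genes had a lower fold change. The exon that holds the 3 miRNA sequences shown above is counted with the rest of the gene, so the values do not separate cut from uncut transcripts. An antisense lncRNA overlaps 523 of its exonic bases but had 0 to 4 counts.

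Because the subunits moved apart, their ratio changed more than either gene. On the FPKM scale, which is per length, the log2 ratio of DROSHA to DGCR8 was −0.614, −0.608 and −0.601 in siCtrl and 1.09, 0.762 and 0.836 in siDDX17. DGCR8 was the more abundant mRNA in every siCtrl library, and DROSHA in every siDDX17 library. The ratio rose by 1.51 log2 units, from −0.608 ± 0.00671 to 0.897 ± 0.175 (SD, n = 3 each), with an exact two-sided permutation p of 0.1, the smallest that 3 against 3 libraries allow. The gap was 1.41 to 1.57 with any library left out.

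**Figure D2:**
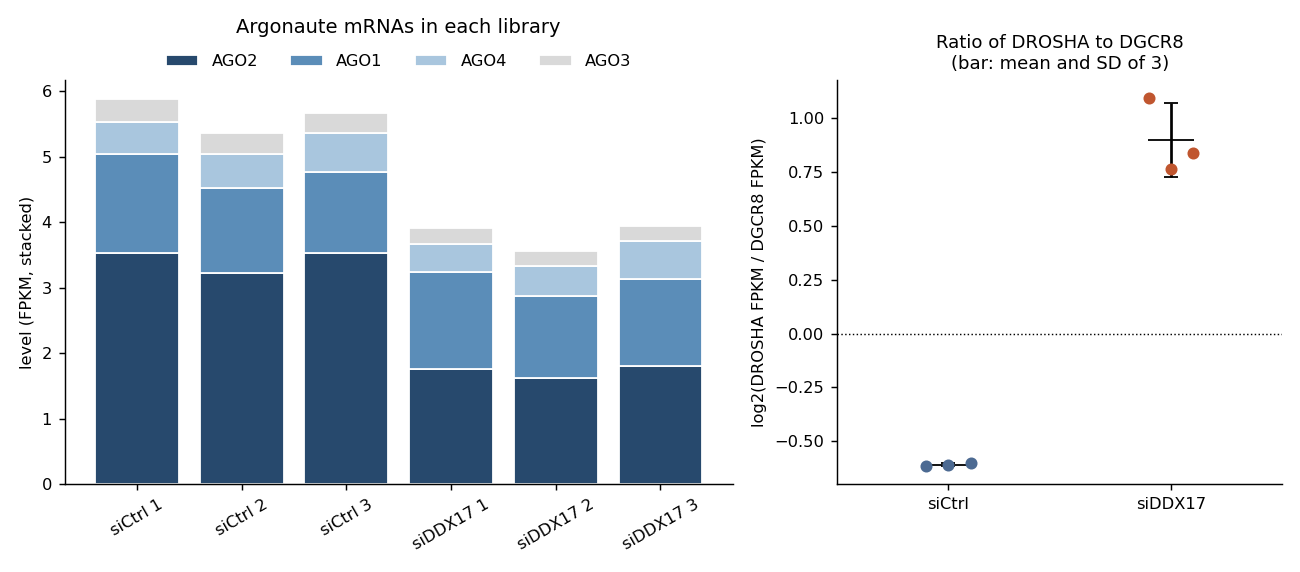
Left: FPKM of AGO1 to AGO4 stacked in each of the 6 libraries. Right: log2 ratio of DROSHA FPKM to DGCR8 FPKM in each library (points) with the mean and SD of 3. The stack falls from 5.36 to 5.88 FPKM in siCtrl to 3.56 to 3.95 FPKM in siDDX17. On this FPKM scale nearly all of the fall is in AGO2. The ratio moves from below 0 to above 0 in all libraries.

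XPO5, the export receptor for hairpin precursors, had 45.6, 45.7 and 49.3 CPM in siCtrl and 35.4, 33.5 and 32.6 CPM in siDDX17. The groups did not overlap. The level fell by 27.8%, from 46.9 ± 2.12 to 33.8 ± 1.41 CPM (SD, n = 3 each), with a log2 fold change of −0.47 (SE 0.0631, edgeR adjusted p = 4.18e-05, 95% interval −0.61 to −0.33). XPO5 (ENSG00000124571.17, chromosome 6 from 43522334 to 43576038, minus strand, 32 exons) shares 348 exonic bases with POLR1C on the other strand. POLR1C had 1427 to 2171 counts, and whether the counting used strand is not given in the sources used here. A part of the XPO5 counts is therefore uncertain, and its size was not measured. RAN, the GTPase that works with exportin-5, was also lower, at 909, 1013 and 1038 CPM in siCtrl and 665, 667 and 666 CPM in siDDX17 (log2 fold change −0.57, adjusted p = 6.1e-06).

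DICER1, the RNase that trims the exported hairpin, had 29.4, 24.4 and 23.1 CPM in siCtrl and 28.9, 25.8 and 29.1 CPM in siDDX17. Replicate 1 of siCtrl lay above all other libraries, and the groups overlapped. The log2 fold change was 0.12 (SE 0.0913, edgeR adjusted p = 0.288, 95% interval −0.07 to 0.32). Without replicate 1 of siCtrl the value was 0.23 and passed the test (adjusted p = 0.00875), so the call for DICER1 rests on that library. The gene (ENSG00000100697.14, chromosome 14 from 95086228 to 95158010, minus strand, 27 exons) has an antisense neighbour, DICER1-AS1, with 40 to 89 counts and no exonic overlap with its canonical transcript.

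TARBP2, the double-stranded RNA-binding partner of Dicer, was lower by 21.5%. It had 51.4, 53.1 and 54.6 CPM in siCtrl and 38.1, 46.1 and 40.9 CPM in siDDX17, with replicate 2 of siDDX17 closest to the control group. The groups did not overlap. The means were 53.1 ± 1.59 and 41.7 ± 4.06 CPM (SD, n = 3 each), with a log2 fold change of −0.35 (SE 0.0713, edgeR adjusted p = 0.00122, 95% interval −0.5 to −0.19). TARBP2 (ENSG00000139546.10, chromosome 12 from 53500921 to 53506431, plus strand, 9 exons) had the shortest 3′ UTR of the 10 genes, 283 bases. PRKRA, which also binds Dicer, was lower too, at 46.6, 49.5 and 44.4 CPM in siCtrl and 36, 35.9 and 37.6 CPM in siDDX17 (log2 fold change −0.36, adjusted p = 0.000384). ADAR, listed with RAN and PRKRA as export and Dicer partners, did not pass the test (log2 fold change 0.03, adjusted p = 0.717). Of these 3 genes 2 were lower (66.7%) and 0 higher, beside 24.3% and 24.5% of all tested genes, which rests on few genes. The log2 ratio of DICER1 to TARBP2 in FPKM was −3.51 ± 0.224 in siCtrl and −3.03 ± 0.232 in siDDX17 (SD, n = 3 each), a difference of 0.479 with an exact two-sided permutation p of 0.2.

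The Argonaute genes differed among themselves. AGO2, an Argonaute that can slice its target, had the largest change of the 10 genes, from 55.2, 52.6 and 56.1 CPM in siCtrl to 25.7, 23.9 and 25.9 CPM in siDDX17. The highest siDDX17 library was below the lowest siCtrl library by more than any spread within a group. The level fell by 54%, from 54.6 ± 1.82 to 25.1 ± 1.11 CPM (SD, n = 3 each), with a log2 fold change of −1.12 (SE 0.0628, edgeR adjusted p = 1.8e-08, 95% interval −1.26 to −0.98). Only 2.2% of the tested genes had a lower fold change. AGO2 (ENSG00000123908.11) is on chromosome 8 from 140520156 to 140635633, on the minus strand, with 19 exons and a 3′ UTR of 11888 bases.

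AGO3, which has a long 3′ UTR of 16755 bases, had 7.5, 7.41 and 6.94 CPM in siCtrl and 4.9, 4.72 and 4.8 CPM in siDDX17. All siDDX17 libraries were below the siCtrl libraries, although the gene was the least abundant of the 10, with 172 to 260 counts per library. The level fell by 33.9%, from 7.28 ± 0.302 to 4.81 ± 0.093 CPM (SD, n = 3 each), with a log2 fold change of −0.6 (SE 0.103, edgeR adjusted p = 0.000341, 95% interval −0.82 to −0.37). This lies just past the fold limit of 1.5, and without replicate 1 of siCtrl or replicate 2 of siDDX17 it was −0.58, just short of it. It was also short of the limit with upper quartile scaling (−0.57), library size only (−0.48) and a minimum of 10 counts in every library (−0.58). AGO3 (ENSG00000126070.18, 35930718 to 36072500) and AGO1 (ENSG00000092847.10, 35869808 to 35930532) are neighbours on the plus strand of chromosome 1, and AGO4 lies before them, from 35808016 to 35857890.

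AGO1, a non-slicing Argonaute, had 20.8, 18.6 and 17.5 CPM in siCtrl and 19.2, 16.3 and 16.9 CPM in siDDX17. The groups overlapped, and replicate 1 was the highest of each. The log2 fold change was −0.12 (SE 0.0896, edgeR adjusted p = 0.306, 95% interval −0.31 to 0.08), and it turned to 0.01 with library size alone and with limma on the FPKM values. AGO4, the remaining human Argonaute and not on the list of 10, had 3.69, 4.16 and 4.56 CPM in siCtrl and 3.01, 3.32 and 4.1 CPM in siDDX17 (log2 fold change −0.25, SE 0.149, adjusted p = 0.181, 95% interval −0.57 to 0.07). The canonical transcripts of the 4 Argonautes share exact stretches of at most 43 bases, between AGO3 and AGO4, so few reads could fit 2 of them equally.

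Expressed as FPKM, the 4 Argonautes together fell from 5.88, 5.36 and 5.67 in siCtrl to 3.91, 3.56 and 3.95 in siDDX17. The difference was −1.83 in FPKM and −2.17 in TMM-scaled CPM per kilobase. AGO2 made up 60.2%, 60.3% and 62.3% of the FPKM sum in siCtrl and 45%, 45.5% and 45.6% in siDDX17. Its share was therefore lower in every siDDX17 library, by 15.5 percentage points (60.9 ± 1.17% and 45.4 ± 0.305%, SD, n = 3 each, exact two-sided permutation p = 0.1, the smallest possible). The share of AGO1 was 11.8 percentage points higher, 23.9 ± 1.91% in siCtrl and 35.6 ± 2.26% in siDDX17 (exact permutation p = 0.1), and AGO4 made up 9.48 ± 1.05% and 12.8 ± 1.97%. These shares add up to the whole, so the rise of a share does not mean a higher level: AGO1 was 1.35 ± 0.144 FPKM in siCtrl and 1.36 ± 0.122 FPKM in siDDX17.

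TNRC6A and TNRC6B, the GW182 scaffolds that link Argonaute to the deadenylases, had values near 0. TNRC6A (ENSG00000090905.17, chromosome 16 from 24610209 to 24827632, plus strand, 25 exons) had 44, 44.1 and 46.8 CPM in siCtrl and 46.1, 47 and 46.6 CPM in siDDX17, and the groups overlapped. The log2 fold change was 0.05 (SE 0.057, edgeR adjusted p = 0.504, 95% interval −0.07 to 0.17). With library size alone it was 0.17 (adjusted p = 0.0269), a shift of the size by which that scaling moved the median gene. TNRC6B (ENSG00000100354.20, chromosome 22 from 40044817 to 40335808, plus strand, 23 exons) had 14.5, 13.4 and 14 CPM in siCtrl and 15, 13.8 and 14.8 CPM in siDDX17 (log2 fold change 0.06, SE 0.0782, adjusted p = 0.581, 95% interval −0.11 to 0.22).

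TNRC6C, the remaining GW182 paralog and not on the list of 10, had 1.54, 1.12 and 2.16 CPM in siCtrl and 1.63, 1.59 and 1.79 CPM in siDDX17. With 32 to 81 counts and an overlap of 1426 exonic bases with TMC6 on the other strand, its log2 fold change of 0.04 had a wide 95% interval of −0.44 to 0.52 (adjusted p = 0.906). TNRC6A made up 85.5 ± 0.752% of the summed TNRC6 FPKM in siCtrl and 85.3 ± 0.618% in siDDX17 (SD, n = 3 each, exact two-sided permutation p = 0.7). The summed TNRC6 FPKM was 5.74, 5.4 and 5.96 in siCtrl and 6.43, 6.38 and 6.56 in siDDX17, higher by 0.757 with no overlap (exact permutation p = 0.1, the smallest possible). On TMM-scaled CPM per kilobase the difference was 0.155, and the FPKM values of TNRC6A, 4.66 to 5.08 in siCtrl and 5.46 to 5.58 in siDDX17, did not overlap although its CPM values did. The TMM-based intervals of TNRC6A and TNRC6B exclude a change as large as that of AGO2, AGO3 or DGCR8.

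**Figure D3:**
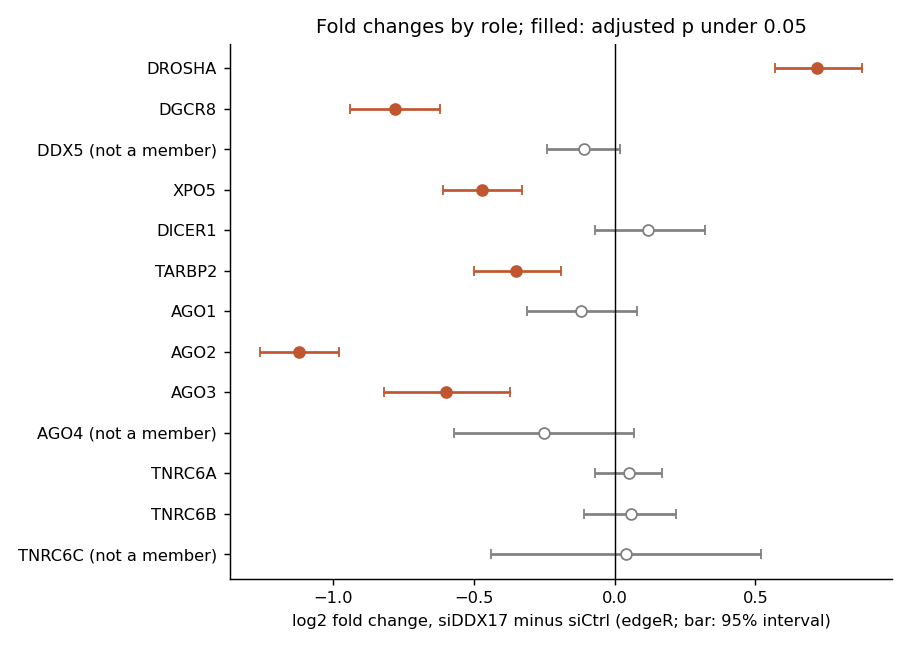
Log2 fold change (x axis, siDDX17 minus siCtrl, edgeR) with its 95% interval for the 10 genes and, beside them, DDX5, AGO4 and TNRC6C; filled points have an adjusted p under 0.05. DROSHA at 0.72 is the sole filled point above 0, AGO2 at −1.12 lies lowest, and the intervals of DDX5, DICER1, AGO1, AGO4 and the 3 TNRC6 genes cross 0.

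Across the 10 genes, the groups did not overlap in CPM for 6, compared with 56.5% of all tested genes. Ordered by mean FPKM in siCtrl, TARBP2 was the most abundant (24.8 ± 0.685, SD, n = 3 as in the values that follow), then XPO5 (8.0 ± 0.403), TNRC6A (4.87 ± 0.21), DGCR8 (4.56 ± 0.129), AGO2 (3.43 ± 0.176) and DROSHA (2.99 ± 0.0755). The lower end was DICER1 (2.2 ± 0.325), AGO1 (1.35 ± 0.144), TNRC6B (0.68 ± 0.04) and AGO3 (0.323 ± 0.0153). TNRC6A and DGCR8 were the only neighbours in this order whose libraries overlapped. In siDDX17, DROSHA stood at 5.39 ± 0.379 FPKM, beside TNRC6A at 5.51 ± 0.0624, whereas DGCR8 was 2.89 ± 0.15, beside DICER1 at 2.61 ± 0.201. AGO2 was at 1.73 ± 0.0945 FPKM, above AGO1 in every siDDX17 library.

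The 7mers shown above can be set beside these fold changes. The 5 genes with TATTGCT in the 3′ UTR comprised AGO2 with 2 sites and AGO3 with 2 sites, which were lower, and AGO1 with 1 site, TNRC6A with 1 site and TNRC6B with 2 sites, none of which passed the test. Over all genes with a 3′ UTR, the median log2 fold change was −0.03 with TATTGCT and 0.0 without. DGCR8, XPO5 and TARBP2, which were also lower, had no TATTGCT. The sense seed of the DDX17 siRNA pairs with ATGGGTG, found in DGCR8 and AGO1 (10.5% of genes). For the control siRNA, TCGGAGA (sense seed) was in 0 of the 10 genes (2.13% of all genes) and TGTCACG (antisense seed) in AGO3 (3.07% of all genes). Genes with TCGGAGA had the widest gap of the 5 7mers, a median log2 fold change of 0.23 against −0.01 without it. Of the 5 genes with GTGCTGA, 4 were lower and TNRC6B was not, and over all genes the median log2 fold change was −0.1 with this 7mer and 0.01 without. Since this 7mer was picked in the same libraries because its carriers tended to be lower, these values are not separate evidence about it. Its carriers AGO2, AGO3 and TNRC6B have long 3′ UTRs of 11888 to 16755 bases, whereas DGCR8 and XPO5 have 1764 and 1534 bases. DROSHA, DICER1 and TARBP2 held none of the 5 7mers. A match is a string of letters and not a shown binding site. The part of either siRNA seed or of GTGCTGA in these fold changes was not tested.

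A list of 56 other genes of the pathway was examined in the same fit, of which 54 were tested and TRIM71 and LIN28A, at 0 to 3 counts per library, were not. Of the 54, 5 were higher (9.26%) and 20 lower (37%), against 24.5% and 24.3% of all genes, and their median log2 fold change was −0.09. With library size alone the split was 12 higher and 17 lower, and without replicate 1 of siCtrl 8 were higher. Past the limits of the methods 1 of the 54 was higher and 9 were lower, beside 11% and 8.03% of all tested genes. The siRNA seed match TATTGCT is in the 3′ UTRs of HNRNPA1, RAN, ANKRD52 and DCP1A, which were lower. It is also in those of DDX5, CNOT7, TUT7 and TENT2, which did not pass the test, and in 14.5% of genes. ATGGGTG has 3 sites in HNRNPA1. It is also in TNRC6C, LIMD1, WTIP, CNOT6L, CNOT7, EDC3, LSM14A and LIN28B, and these were not lower. The part of these matches was not tested.

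Of the 13 deadenylation genes, 7 were lower (53.8%, against 24.3% of all tested genes) and 0 higher (against 24.5%). All 7 were CCR4-NOT subunits. Of the 10 listed subunits of CCR4-NOT, the deadenylase complex that GW182 proteins recruit, 5 were also past the fold limit, beside 8.03% of all tested genes. CNOT8, a catalytic subunit, fell from 37.4, 37.8 and 39 CPM in siCtrl to 13.5, 12.2 and 12.8 CPM in siDDX17 (log2 fold change −1.57, SE 0.0706, adjusted p = 2.91e-09). Its paralog CNOT7 had values of 85.9 ± 1.71 and 82.3 ± 3.06 CPM (SD, n = 3 each) with a log2 fold change of −0.06 and did not pass the test. The others past the limit were CNOT9 (log2 fold change −0.69, adjusted p = 3.24e-07), CNOT11 (−0.67, adjusted p = 3.63e-06), the catalytic CNOT6 (−0.6, adjusted p = 4.21e-05) and CNOT3 (−0.59, adjusted p = 6.98e-05). Across the 15 alternatives CNOT8 stayed past the limit, at −1.61 to −1.26. The weakest values of CNOT9 (−0.52), CNOT11 (−0.51), CNOT6 (−0.37) and CNOT3 (−0.41) were short of it. CNOT1, the scaffold, was lower by 21.2%, and CNOT10 by 13.7%, although CNOT10 was called in only 7 of 15 alternatives. CNOT8 has 2 GTGCTGA matches in its 3′ UTR and CNOT6 has 1. CNOT1, CNOT3, CNOT9, CNOT10 and CNOT11, which were also lower, have none. This 7mer was picked in earlier work on these same libraries, so its presence is not independent of these fold changes.

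Of the 9 Microprocessor cofactors tested, 4 were lower (44.4%) and 0 higher, beside 24.3% and 24.5% of all tested genes. HNRNPA1, which binds the hairpin of some primary transcripts, fell from 648, 660 and 612 CPM to 326, 299 and 313 CPM (log2 fold change −1.03, adjusted p = 1.87e-08), with the caveat that its many pseudogenes make its counts uncertain. SRRT, which links the cap-binding complex to miRNA processing, fell by 31.9%, ILF2 by 22.7% and KHSRP, which binds some miRNA precursors, by 12.3%. KHSRP was called in 11 of 15 alternatives.

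Of the 10 Argonaute regulators tested, 3 were lower (30%) and 1 higher (10%), beside 24.3% and 24.5% of all tested genes. This comparison rests on few genes. ANKRD52, a subunit of the phosphatase that dephosphorylates Argonaute, fell from 49.3, 51.4 and 52.2 CPM to 24.6, 25 and 26.3 CPM (log2 fold change −1.01, adjusted p = 3.76e-08). PPP6C, the catalytic subunit of the same phosphatase, fell by 32.8%, and TSNAX, a subunit of the RNase that clears passenger strands, by 32.7%. LIMD1, which bridges AGO2 to downstream factors, was the gene that rose (log2 fold change 0.25, adjusted p = 0.00379).

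Decapping and turnover genes moved both ways. Of 10 decapping and decay genes, 3 were higher and 3 lower (30% each), near the background of 24.5% and 24.3% of all tested genes. DCP2, the decapping enzyme, rose from 9.86, 9.61 and 9.95 CPM to 16.8, 17.6 and 17.8 CPM (log2 fold change 0.83, adjusted p = 1.62e-06), whereas its scaffold EDC4 fell (log2 fold change −0.59, adjusted p = 8.45e-06). Both were past the fold limit, but their weakest values across the 15 alternatives, 0.55 for DCP2 and −0.39 for EDC4, were short of it. EDC3 (log2 fold change 0.5) and PATL1 (0.25) were the others that rose, and DCP1A (−0.44) and DDX6 (−0.23) the others that fell, with DDX6 called in 12 of 15 alternatives. Of 7 tailing and turnover genes tested, 1 was higher and 1 lower (14.3% each, beside the same background shares), a comparison that rests on few genes. The higher gene was PARN, a poly(A) ribonuclease (log2 fold change 0.28, adjusted p = 0.002). The lower gene was ZSWIM8, the ubiquitin ligase subunit that targets Argonaute in target-directed miRNA decay, at 32.4, 30.2 and 31.2 CPM in siCtrl and 13.1, 14.7 and 14.6 CPM in siDDX17 (log2 fold change −1.15, adjusted p = 6.61e-08).

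**Figure D4:**
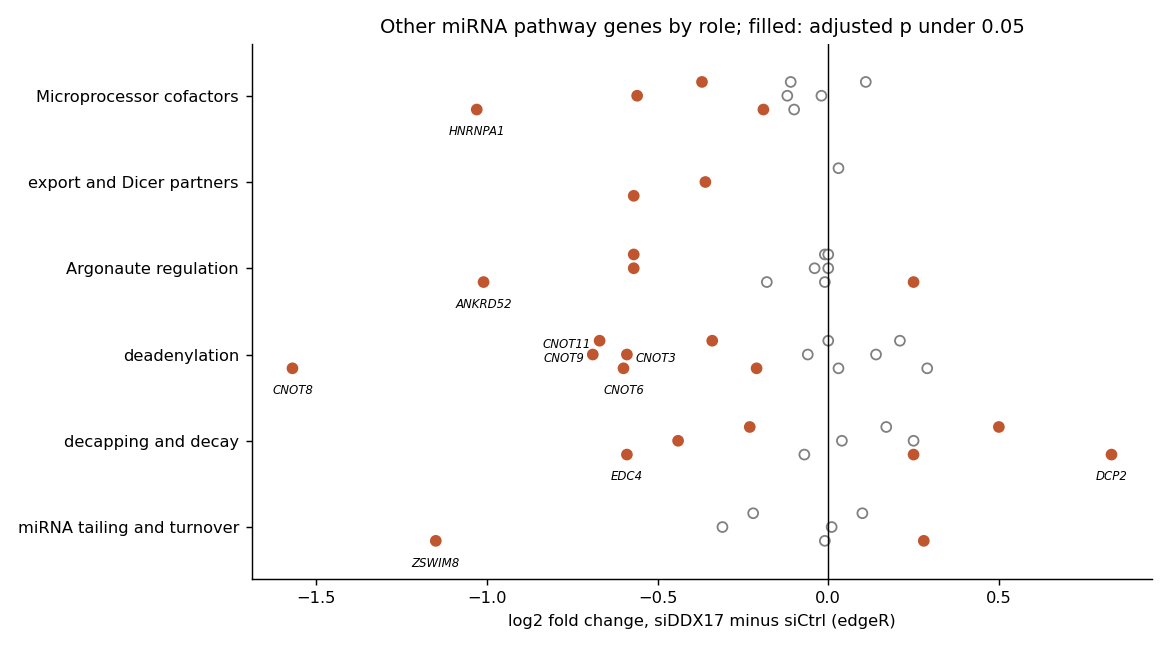
Log2 fold change (x axis, siDDX17 minus siCtrl, edgeR) of the other pathway genes tested, in 6 roles (rows, with points shifted up and down for legibility); filled points have an adjusted p under 0.05, and the 10 named genes passed the fold limit of 1.5. CNOT8 lies lowest at −1.57, DCP2 highest at 0.83, and all 7 filled points of the deadenylation row are below 0.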

How the data were processed

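RNA-seq of A549 cells transfected with control or DDX17 siRNA was analysed, with 3 libraries per group assigned from the sample titles. Nothing in the labels says that the libraries came from separate cultures, so p-values measure the spread between these samples, although the study calls them biological replicates. Libraries were made with a strand-specific kit. After trimming, TopHat2 was used by the authors to align reads to GRCh38, and uniquely mapped reads were kept. They deposited raw read counts per gene, and FPKM values, scaled to gene length and sequencing depth and rounded to 2 decimals. The counting program, the annotation and the use of strand are not given in the sources used here. Rounding limits the precision of low FPKM values such as those of AGO3.

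Counts were tested with edgeR 4.0.16 in R 4.3.3 (filterByExpr, TMM, glmQLFit, glmQLFTest, all 6 libraries), with Benjamini-Hochberg adjustment over 15615 genes and a threshold of 0.05. The limits given in the methods of the study, a fold change of 1.5 with p under 0.01, were applied beside it. Shares and ratios of FPKM were compared with exact two-sided permutation tests. Alternatives were scaling by library size only, by RLE or by upper quartile, no filter, at least 10 counts in every library, DESeq2 1.42.0, limma 3.58.1 on log2(FPKM + 1) or log2(FPKM + 0.1) for genes of at least 0.5 FPKM in 3 libraries, a replicate block, a log2 limit of 1, and leaving out each library. The test on simulated counts of 15598 genes recovered 176 of 193 genes changed 2-fold and called 7 unchanged genes. The simulation changed few genes, all by 2-fold, and gave every gene the same spread between replicates. In the data 48.8% of tested genes were called and the median absolute log2 fold change was 0.29. The simulation therefore gives no error rate for such smaller and more widespread changes.

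Locations, exons and 3′ UTRs of canonical transcripts came from GENCODE release 44, and mature miRNAs from RefSeq (GRCh38.p14). The siRNA seeds were taken from the methods of the study. The 10 genes, the pathway list and the 7mers were chosen with earlier results of these data known. Named pathway genes are the 10 with the largest absolute log2 fold change past the limits of the methods, averaging at least 1 log2 CPM; the other genes named beside them were chosen after their values were seen. Figures were drawn with matplotlib 3.10.9.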

Additional observations from a re-analysis of the deposited data

How the results depend on the processing

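DROSHA (log2 fold change 0.67 to 0.84), DGCR8 (−0.82 to −0.51), XPO5 (−0.5 to −0.3) and AGO2 (−1.15 to −0.7) kept their direction and passed the test under all 15 alternatives run, and AGO3 (−0.63 to −0.48) under 13, since the FPKM filter removed it from both limma settings. TARBP2 missed the threshold in limma on log2(FPKM + 0.1), at −0.22 (adjusted p = 0.0534). Without replicate 1 of siCtrl, DICER1 passed at 0.23 (adjusted p = 0.00875). TNRC6A passed with library size only (0.17), limma on log2(FPKM + 1) (0.15) and log2(FPKM + 0.1) (0.18), and AGO1 turned to 0.01 in the same 3 settings; none of these corrects for the shift of the median gene. The count of the 10 genes changed was therefore 2 higher with library size only, both limma settings and without replicate 1 of siCtrl (1 to 2 with any library left out), and 3 lower in limma on log2(FPKM + 0.1), which does not test AGO3. A log2 limit of 1 left 0 higher and 1 lower. Past the fold limit of 1.5, 1 was lower in limma on log2(FPKM + 1), which does not test AGO3 and gave DGCR8 as −0.51, and 2 to 3 with any library left out. Of the 54 other pathway genes, 8 were higher with upper quartile scaling, 12 with library size only, 10 in each limma setting, 8 without replicate 1 of siCtrl (5 to 8 with any library left out) and 0 with the log2 limit of 1, which left 4 lower. The share of TNRC6A changed sign with libraries left out, from −0.47 to 0.303 percentage points. DDX17 stayed between −2.66 and −2.3. Same-numbered libraries did not visibly deviate together (r of deviations 0.00698, 0.0407 and −0.0564). With 3 libraries per group, this cannot tell whether same-numbered libraries were prepared as pairs. The fit with a replicate block gave 1 higher and 5 lower of the 10 genes. It gave 5 higher and 20 lower of the others, and both splits were the same without the block. TNRC6C, with 32 to 81 counts, and AGO4, with 116 to 171, had wider standard errors (0.223 and 0.149) than any of the 10 genes, of which AGO3, with 172 to 260 counts, had the widest (0.103).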
